A study of Equus caballus with 24 samples.

Results

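The small leucine-rich proteoglycans of bone examined here are 8 genes, FMOD, ASPN, DCN, BGN, LUM, OGN, PRELP and OMD. They were found by their symbols, and each was listed once in the deposited table of 24232 genes with read counts and once in the table of 24248 genes with RPKM values. The 8 genes were chosen with earlier results of these data in view, and the values that led to each choice are not recorded. Their levels and differences are therefore a description, and the p-values printed beside them are not independent evidence. The libraries were made from the pituitary and from the epiphysis, which is the end of a long bone, of Debao ponies (DPs, a small breed) and Mongolian horses (MHs, a larger breed), to look for genes related to body growth. Each breed gave 3 libraries per tissue from juveniles and 3 from adults, all from females, which makes 24 libraries in 8 groups. The long bone groups are DPLBJ (juvenile DP), MHLBJ (juvenile MH), DPLBA (adult DP) and MHLBA (adult MH), and the pituitary groups are DPPJ, MHPJ, DPPA and MHPA in the same order. The labels name no treatment.

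Small leucine-rich proteoglycans are secreted proteins of connective tissue whose core is a curved stack of leucine-rich repeats. Most of them bind collagen fibrils and help to set how thick and how evenly spaced the fibrils become, and several also bind growth factors of the TGF-beta family. Class I holds decorin (DCN) and biglycan (BGN), which carry chondroitin or dermatan sulfate chains, and asporin (ASPN), which has a run of aspartic acid residues instead. Class II holds lumican (LUM), fibromodulin (FMOD) and osteomodulin (OMD, or osteoadherin), which can carry keratan sulfate, and PRELP, whose basic start binds heparan sulfate. Osteoglycin (OGN, or mimecan) belongs to class III. In bone and cartilage, biglycan and decorin are abundant in the matrix, osteomodulin is made by osteoblasts, and fibromodulin and PRELP are well known from cartilage.

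The files name the genes as ENSECAG00000018717 (BGN), ENSECAG00000020413 (DCN), ENSECAG00000007047 (ASPN), ENSECAG00000018248 (LUM), ENSECAG00000017864 (FMOD), ENSECAG00000018126 (PRELP), ENSECAG00000014287 (OMD) and ENSECAG00000017802 (OGN). In the RefSeq annotation of the horse assembly TB-T2T, which was used for neighbors only, ASPN, OMD and OGN follow each other directly. LUM lies between KERA and DCN, with EPYC next to KERA, and FMOD and PRELP are neighbors of each other and of OPTC. BGN is not next to any of the other 7 genes.

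Reads counted on genes numbered between 11616518 and 27007342 per long bone library and between 11433209 and 23573036 per pituitary library. The labelled tissues were checked against marker genes. Of the 9 osteoblast markers in the files, none was under an RPKM of 1 throughout any long bone group, and their sum lay between 3014 and 23220 RPKM in the 12 long bone libraries. The 5 hormone genes taken as markers of the anterior pituitary summed to between 14500 and 42460 RPKM in 7 pituitary libraries, but to at most 20.7 RPKM in DPPA replicate 1, MHPA replicate 1 and all 3 MHPJ libraries. These 5 libraries held markers of glia and the posterior lobe at 4506 to 14140 RPKM in sum. In MHPJ replicate 2 that sum came mostly from S100B (2919 RPKM) and MBP (2379 RPKM). GFAP and AQP4 were only 26.5 and 1.86 RPKM there, against 892 to 3609 and 355 to 695 in the rest of the 5. Several long bone libraries differed in cartilage, blood and muscle markers, and the values that touch a result stand beside it. These are bulk samples, so fewer cells of a type and less RNA per cell cannot be told apart.

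The 8 genes had very different levels in the long bone epiphysis. BGN, LUM, DCN and OMD were the abundant ones, with a median RPKM over the 12 libraries of 338.2, 268.1, 167.4 and 109.5. RPKM corrects reads for the length of the gene and the depth of the library, so levels can be compared between genes. OGN followed at 14.4, PRELP at 9.41, FMOD at 8.11 and ASPN at 1.27. LUM was above DCN in 12 of 12 libraries, OMD above OGN in 12 of 12 and FMOD above ASPN in 11 of 12. The order was not firm elsewhere, since BGN was above LUM in 7 of 12 libraries, OGN above PRELP in 7 of 12 and PRELP above FMOD in 6 of 12. Reads per kilobase computed from the counts gave the same order, which is no separate check. RPKM comes from the same reads and gene lengths. The reads behind these values ranged from 6 for ASPN in DPLBA replicate 3 to 67993 for LUM in DPLBA replicate 2.

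The genes also differed in how much they varied. The highest long bone library exceeded the lowest by 12.9 times for DCN, 14.6 times for LUM, 15.8 times for BGN and 17.1 times for OGN. The ratio was 42.4 for PRELP, 45.3 for OMD, 113.2 for FMOD and 1287 for ASPN. For DCN, BGN, LUM, OGN and OMD the lowest library by RPKM was the same one, MHLBA replicate 1. After TMM normalization this held for DCN, BGN and OMD, while LUM and OGN were lowest in MHLBJ replicate 3. MHLBA replicate 1 also had the lowest long bone sums of adipocyte (717.4 RPKM), endothelial (97.1), stromal (172.4) and osteoblast (3014) markers. It was not lowest in chondrocyte or osteoclast markers. Together the 8 genes took between 0.0455% of the reads, in MHLBA replicate 1, and 0.761%, in DPLBA replicate 2.

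BGN, LUM and DCN made up most of the summed RPKM of the family in every long bone library, from 68.4% to 87.2%. The share of FMOD and PRELP together varied widely. It was 1.79%, 11.9% and 17.1% in the 3 DPLBA libraries and 0.556%, 6.12% and 9.97% in DPLBJ, when each group is put in rising order. In MHLBA it lay between 1.42% and 6.0%, and in MHLBJ between 0.724% and 1.20%. OMD and OGN together made up 29.5% in DPLBJ replicate 1, and between 7.19% and 21.6% in the other 11 libraries. The ratio of BGN to DCN stayed within a narrower band, between 1.08 and 3.29.

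**Figure D1:**
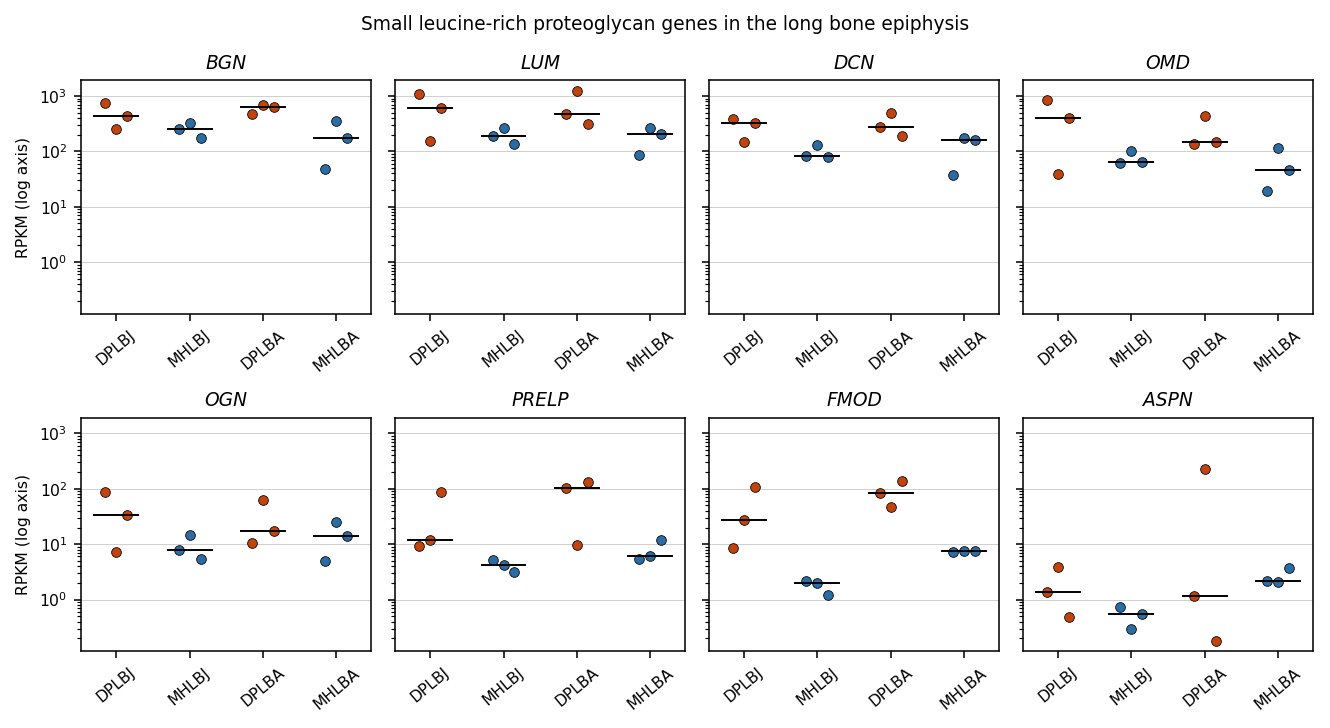
RPKM (log axis) of each gene in the 12 long bone libraries by group. Points are libraries in the order of replicates 1, 2 and 3, bars are group medians, DPs are red and MHs blue. FMOD parts the breeds at both stages, while the only high ASPN value, 231.7, is 1 DPLBA library.

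In the long bone epiphysis, all 8 genes had a higher mean in DPs than in MHs at both stages. At the juvenile stage 7 of 8 passed the threshold (a change of over 2 times at an unadjusted P below 0.05), with BGN below it. At the adult stage 6 of 8 passed, with ASPN and OGN below it. All 13 calls were higher in DPs. The median log2 fold change of the 8 genes (DP minus MH) was 2.21 in juveniles and 1.98 in adults, beside 0.053 and -0.035 over all genes tested.

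These counts stand beside a broad difference between the breeds. Of the 13755 genes tested at the juvenile stage, 13.8% passed the same threshold, 8.33% higher and 5.47% lower in DPs. Of the 14073 tested at the adult stage, 18.3% passed, 10.3% higher and 8.03% lower. After Benjamini-Hochberg adjustment over all genes tested, edgeR left 0 of the 8 at the juvenile stage, where it left 0 genes in all. DESeq2 left 5 of the 8 and 1209 genes in all there. At the adult stage edgeR left 1 of the 8, FMOD, and 2.24% of all genes, and DESeq2 left 6 of the 8 and 1757 genes in all. Because the genes were selected on results of these data, nothing is read from these shares.

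FMOD, which binds collagen fibrils and is abundant in cartilage and tendon, differed most clearly. In juveniles its RPKM was 8.61, 27.7 and 109.5 in DPLBJ replicates 1 to 3 and 2.18, 1.99 and 1.21 in MHLBJ replicates 1 to 3. In adults it was 83.7, 47.6 and 137.0 in DPLBA and 7.17, 7.39 and 7.60 in MHLBA. The breeds did not overlap at either stage, and the 3 MHLBA libraries were within 1.06 times of each other. The log2 fold change was 4.82 ± 0.90 (SE, adjusted p = 0.136) in juveniles and 3.42 ± 0.45 (adjusted p = 0.0223) in adults. FMOD passed the threshold under all 14 alternative settings at each stage, with a log2 fold change of at least 3.59 in juveniles and 2.996 in adults when any 1 library was left out.

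PRELP, which anchors cell-surface heparan sulfate to collagen, showed the same order but a wider spread in DPs. Its RPKM was 9.18, 11.8 and 88.9 in DPLBJ and 5.13, 4.15 and 3.09 in MHLBJ. In adults it was 101.4, 9.64 and 131.0 in DPLBA and 5.35, 6.13 and 11.8 in MHLBA. DPLBA replicate 2 was below MHLBA replicate 3 by RPKM and barely above it after TMM normalization (17.2 against 17.1 CPM, that is, counts scaled to library size), so the adult groups touched. The log2 fold changes were 3.20 ± 0.86 (adjusted p = 0.156) in juveniles and 3.27 ± 0.81 (adjusted p = 0.0750) in adults. PRELP passed under all 14 alternative settings at each stage. Without DPLBJ replicate 3 the juvenile value fell to 1.58.

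OMD, the osteoblast member of class II, had its highest level in DPLBJ replicate 1. The RPKM was 856.3, 39.1 and 397.1 in DPLBJ and 61.6, 102.9 and 65.1 in MHLBJ. DPLBJ replicate 2 was below all 3 MHLBJ libraries, so the juvenile groups overlapped. The adult values were 137.6, 426.9 and 149.1 in DPLBA and 18.9, 116.2 and 45.7 in MHLBA, without overlap. The log2 fold changes were 2.62 ± 0.93 (adjusted p = 0.222) and 2.06 ± 0.66 (adjusted p = 0.121).

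LUM, which regulates fibril spacing and is best known from the cornea, followed OMD closely. In juveniles its RPKM was 1108, 156.7 and 597.3 in DPLBJ and 193.1, 268.6 and 138.0 in MHLBJ. Again DPLBJ replicate 2 lay among the MH values. Adult levels were 467.2, 1237 and 312.6 in DPLBA and 84.7, 267.6 and 205.5 in MHLBA, with all DP libraries above all MH libraries. The log2 fold changes were 1.76 ± 0.66 (adjusted p = 0.240) and 1.90 ± 0.61 (adjusted p = 0.120).

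DCN, the class I member that limits the lateral growth of fibrils and binds TGF-beta, had the smallest spread. Its RPKM was 379.7, 148.5 and 329.3 in DPLBJ and 81.3, 132.7 and 79.5 in MHLBJ, with no overlap. Among adults DCN was 274.8, 489.2 and 190.2 in DPLBA and 38.1, 173.2 and 161.7 in MHLBA, again with no overlap. The log2 fold changes were 1.67 ± 0.41 (adjusted p = 0.150) and 1.44 ± 0.51 (adjusted p = 0.146). DCN passed under all 14 alternative settings in juveniles and 13 of 14 in adults.

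BGN, its closest relative and a matrix protein of bone that modulates BMP and TGF-beta signals, was the most abundant of the family by median. Its RPKM was 748.1, 250.3 and 433.7 in DPLBJ and 256.3, 323.5 and 174.1 in MHLBJ. The juvenile groups overlapped, and the log2 fold change of 1.06 ± 0.47 did not pass (unadjusted P = 0.0554, adjusted p = 0.295). In adults BGN was 479.7, 685.9 and 626.5 in DPLBA and 47.2, 353.0 and 174.1 in MHLBA. All DPLBA libraries were above all MHLBA libraries there (1.72 ± 0.57, adjusted p = 0.126).

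ASPN, which competes with decorin for collagen and can bind TGF-beta, was near the bottom of the range in most libraries. Its RPKM was 1.35, 3.90 and 0.490 in DPLBJ and 0.720, 0.290 and 0.550 in MHLBJ. In adults it was 1.18, 231.7 and 0.180 in DPLBA and 2.15, 2.10 and 3.65 in MHLBA. DPLBA replicate 2, with 9225 reads on the gene, was the exception, and the other DPLBA libraries lay below all 3 MHLBA libraries. The juvenile log2 fold change was 2.11 ± 0.87 (adjusted p = 0.268). The adult value was 4.89 ± 2.13 (unadjusted P = 0.0515, adjusted p = 0.210) and turned to -2.10 without DPLBA replicate 2, where it passed the threshold with ASPN lower in DPs.

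OGN, a class III member found in bone and many other connective tissues, had the smallest adult difference. Its RPKM was 85.9, 7.30 and 33.5 in DPLBJ and 7.96, 14.5 and 5.36 in MHLBJ, with DPLBJ replicate 2 between the MH values. In adults it was 10.6, 62.6 and 17.4 in DPLBA and 5.03, 25.0 and 14.3 in MHLBA, and the groups overlapped. The log2 fold changes were 2.31 ± 0.83 (adjusted p = 0.226) in juveniles and 1.12 ± 0.71 (unadjusted P = 0.156, adjusted p = 0.374) in adults. The adult value was -0.08 without DPLBA replicate 2.

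After TMM normalization all 3 DP libraries were above all 3 MH libraries for 3 of the 8 genes in juveniles (FMOD, PRELP and DCN) and for 6 of 8 in adults (FMOD, PRELP, DCN, LUM, BGN and OMD). Over all genes tested the share was 9.69% and 15.2%. The number of genes past the threshold rested partly on single libraries. In juveniles it was 3 (FMOD, PRELP and DCN) without MHLBJ replicate 1 or MHLBJ replicate 3, and 4 without DPLBJ replicate 1. Over all genes, 733 of 14322, 674 of 13984 and 1839 of 14397 were called higher in DPs in these fits. In adults FMOD and PRELP were higher in DPs without DPLBA replicate 2, and ASPN, which had not passed with it, was lower, which makes 3. Of the 14500 genes tested in that fit, 1361 were called higher and 1164 lower in DPs. The DP minus MH difference of the 8 genes did not pass a test of change between stages for any of them (0 of 8 at an unadjusted P under 0.05 in edgeR and in DESeq2, beside 4.48% of 14735 genes in edgeR). The interaction was largest for ASPN, at -2.83 ± 2.41 on the log2 scale, and lay between -0.70 and 1.38 for the other 7.

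**Figure D2:**
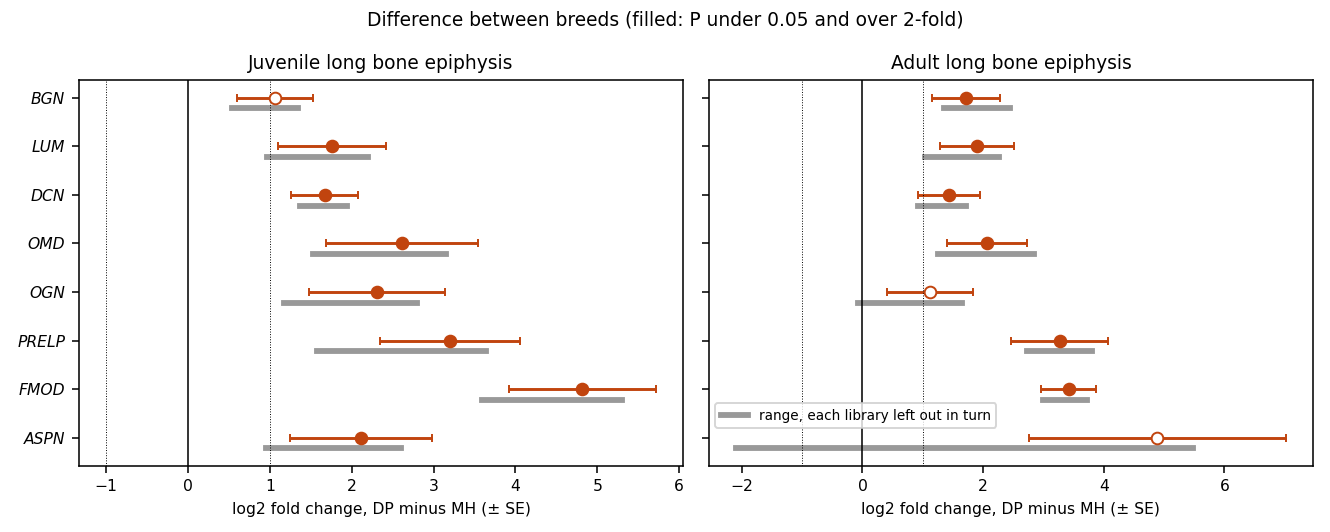
Log2 fold change (DP minus MH) with its standard error for the 8 genes in the juvenile and adult long bone epiphysis. Filled points passed the threshold, and gray bars span the values with each library left out in turn. FMOD, PRELP and OMD stay above 1 at both stages with any library left out, and the adult ASPN bar runs from -2.10 to 5.48.

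Across the 12 long bone libraries the genes fell into 2 patterns and 1 exception. BGN, DCN, LUM, OMD and OGN varied together, with Pearson's r of log2 CPM between 0.749 (BGN and OGN) and 0.949 (LUM and OMD) over their 10 pairs. FMOD and PRELP varied with each other (r = 0.904), and with the former 5 genes only at 0.189 to 0.634. ASPN had r between -0.186 and 0.404 with the other 7, and between -0.444 and -0.041 without DPLBA replicate 2. All points share the same libraries and their normalization, so these values are a description.

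The 2 patterns also stood apart within the breeds. Among the 6 DP libraries, r was 0.708 to 0.979 among the 5 genes, 0.832 between FMOD and PRELP, and -0.471 to -0.168 between the pair and the 5. Among the 6 MH libraries the same values were 0.564 to 0.940, 0.888 and -0.553 to 0.467. With the breed means removed, r between FMOD and PRELP was 0.787 and between the pair and the 5 genes it was -0.341 to -0.093. All 10 values between the patterns were then below 0. Chromosomal neighbors were not always alike, since r was 0.903 for OMD and OGN but 0.170 for ASPN and OMD.

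**Figure D3:**
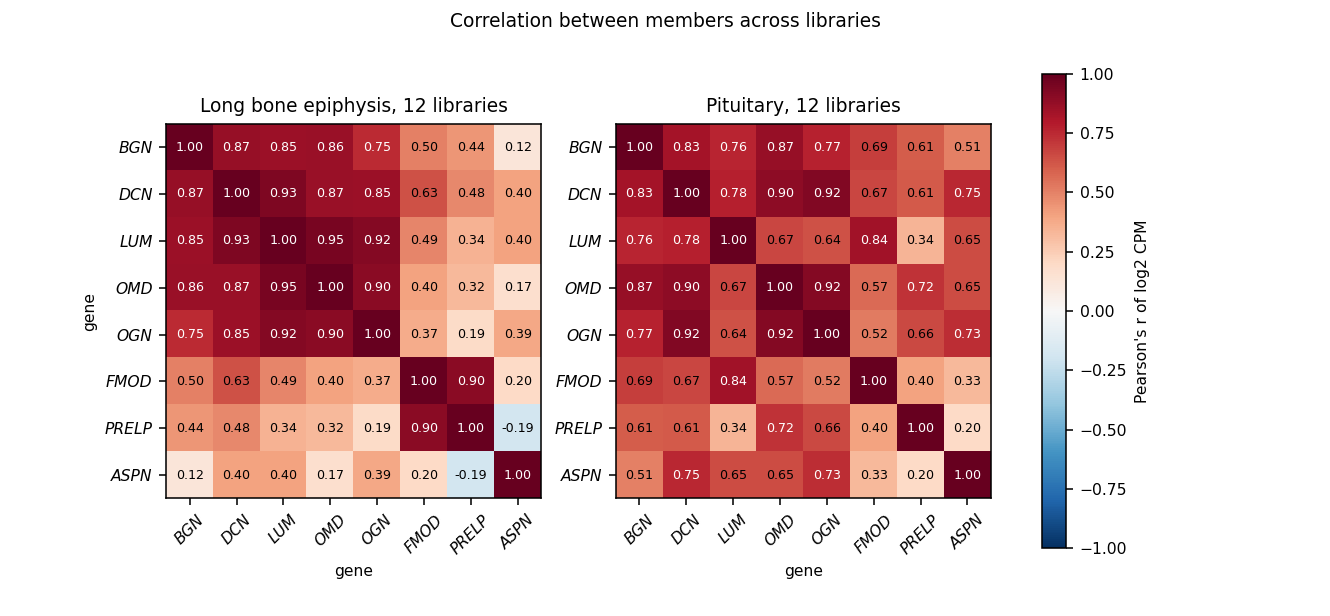
Pearson's r of log2 CPM between the genes over the 12 long bone libraries (left) and the 12 pituitary libraries (right), with color from -1 to 1. In the long bone, BGN, DCN, LUM, OMD and OGN form a block of r from 0.749 to 0.949, FMOD and PRELP a pair at 0.904, and ASPN stands apart.

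The genes most like each member were taken from 8669 named genes with a mean log2 CPM of at least 3. For FMOD they were F13A1 (r = 0.958), MATN2 (0.947) and COMP (0.945), of which MATN2 and COMP encode matrix proteins. PRELP was closest to SREBF2 (0.958), FBXO7 (0.944) and F13A1 (0.939). LUM was closest to LOX (0.954), the enzyme that cross-links collagen, followed by SLC44A1 (0.949) and KDELR3 (0.941). OMD was closest to ANO5 (0.974), LOX (0.970) and CDH2 (0.967). For OGN the closest genes were DPT (0.938), COL5A1 (0.932) and COL5A2 (0.932), a fibril-binding protein and chains of the collagen that starts fibrils. BGN was closest to C1QTNF1 (0.975), PCOLCE (0.967), which enhances the trimming of procollagen, and CDH15 (0.962). DCN was closest to SLC44A1 (0.940), LPAR6 (0.939) and MXRA8 (0.918), and ASPN to ZNF638 (0.905), SCAPER (0.847) and DNM3 (0.828). The mean of the 8 standardized profiles was closest to SLC44A1 (0.946), GSTA4 (0.943), SCARF2 (0.939), GARS (0.936) and FIBIN (0.934). These values were chosen as the highest of all and carry no test.

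FMOD and PRELP moved with markers of chondrocytes, the cells of cartilage. The 10 markers (SOX9, ACAN, COL2A1, COL9A1, COL11A1, MATN1, MATN3, COL10A1, COMP and HAPLN1) summed to 2484, 232.3 and 4915 RPKM in DPLBA replicates 1 to 3 and to 39.3, 984.8 and 5396 in DPLBJ. The sums were 261, 16.8 and 48.3 RPKM in MHLBA and 6.85, 26.3 and 10.0 in MHLBJ. Of the 8 markers tested in juveniles all 8 were called higher in DPs (median log2 difference 7.22), and in adults 4 of 9 were (median 4.0). Over all genes tested, 8.33% and 10.3% were called higher in DPs. Over the 12 libraries r with the log2 sum was 0.936 for FMOD and 0.914 for PRELP, and between -0.012 and 0.430 for the other 6 members. Within DPs it was 0.911 and 0.870, and within MHs 0.761 and 0.678. The 3 highest FMOD values, in DPLBA replicates 1 and 3 and DPLBJ replicate 3, were in the 3 libraries with the highest sums.

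FMOD did not follow this sum in every library. By RPKM it was 7.17 in MHLBA replicate 1 and 7.39 in MHLBA replicate 2, where the sums were 261 and 16.8. COL2A1, the main collagen of cartilage, was 122.9 and 1.41 RPKM in these libraries. After TMM normalization, however, FMOD was higher in MHLBA replicate 1 than in replicate 2 (40.7 against 25.5 CPM). In DPLBA replicate 2 it was 47.6 RPKM, against 7.17 in MHLBA replicate 1, although the marker sums of these libraries were 232.3 and 261 RPKM. The part of cartilage cells in the difference between breeds was not tested.

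**Figure D4:**
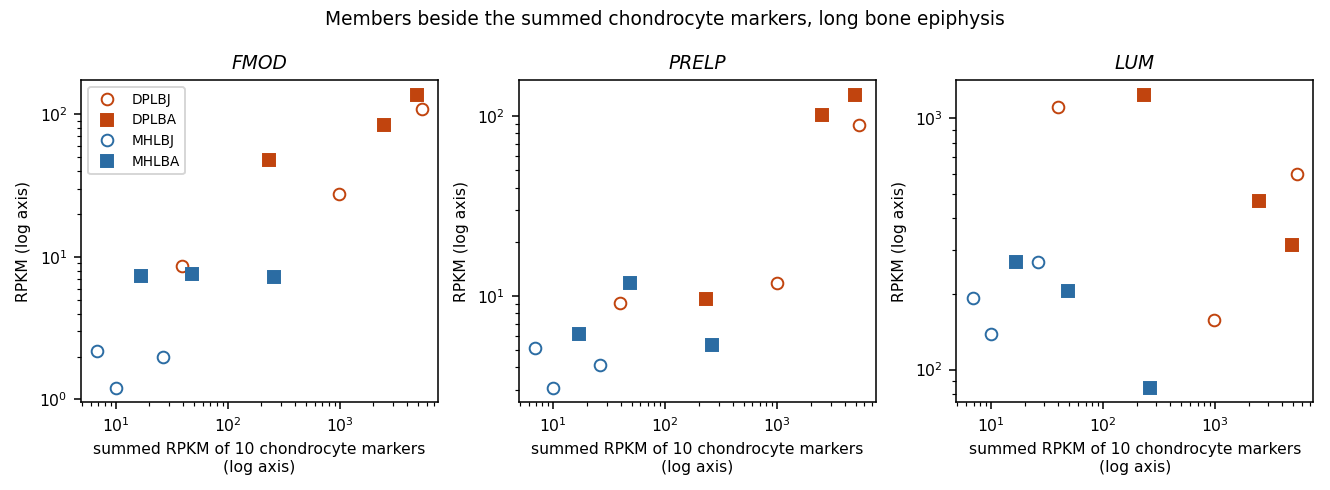
RPKM of FMOD, PRELP and LUM against the summed RPKM of 10 chondrocyte markers in the 12 long bone libraries (log axes). Open points are juveniles, filled points adults, DPs red and MHs blue. FMOD and PRELP are highest in the 3 libraries with sums of 2484 RPKM or more, while LUM is highest in 2 libraries with sums of 39.3 and 232.3.

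The 5 genes of the larger pattern moved with markers of stroma. The 10 markers of fibroblasts and marrow stroma summed to 620 to 1855 RPKM in DPLBA, 604 to 788 in DPLBJ, 172 to 603 in MHLBA and 367 to 575 in MHLBJ. With the log2 of this sum r was 0.893 for DCN, 0.856 for BGN, 0.812 for LUM, 0.725 for OMD and 0.714 for OGN, and 0.431 and 0.259 for FMOD and PRELP. With the osteoblast sum r was 0.796 for BGN, 0.673 for OMD and 0.459 to 0.635 for DCN, LUM and OGN, and it was 0.515 for FMOD and 0.582 for PRELP. Within the 6 DP libraries it was 0.033 to 0.292 for the 5 genes, 0.685 for FMOD and 0.824 for PRELP. Within the 6 MH libraries the order was the other way round, at 0.510 to 0.946 for the 5 genes, -0.393 for FMOD and -0.531 for PRELP. In DPLBJ replicate 1, which had the highest OMD, OGN and BGN, the osteoblast sum was 10760 RPKM, within the range of the other libraries. Single markers differed from the sum. BGLAP (1303 RPKM against at most 462.4 elsewhere in the long bone), ALPL (252.5 against 182.8) and SP7 (57.6 against 53.0) were highest there. The rest of the 9 osteoblast markers were highest in other libraries. DPLBJ replicate 2, lowest of the DP libraries in BGN, DCN, LUM, OMD and OGN, held the neutrophil markers MPO and LTF at 1534 RPKM in sum, against at most 366.9 in the other long bone libraries. Erythroid markers summed to 564.6 RPKM there and to 652.9 in DPLBJ replicate 3, against at most 14.4 elsewhere in the long bone. DPLBA replicate 2, with the ASPN value of 231.7, also had the highest COL3A1 (1186 RPKM against at most 117.3 elsewhere in the long bone). It was highest for the tendon markers TNMD (24.3 against at most 0.530) and MKX (7.48 against at most 5.44). The tendon markers THBS4 and EGR1 were not highest there, at 248.0 and 22.4 RPKM against up to 249.7 and 90.1 elsewhere. BGLAP was listed at 0 there, while the osteoblast sum was 12240 RPKM, within the range of the other libraries. The part of these cells in the differences was not tested.

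The genes that build or use small leucine-rich proteoglycans were taken as lists. Over all genes tested, 8.33% were called higher and 5.47% lower in DPs in juveniles. In adults the shares were 10.3% and 8.03%. The lists were chosen with results of these data known, so their counts below are a description beside these shares. Among the other members of the family, 1 of 5 tested genes rose in DPs in juveniles and 3 of 6 in adults, and none fell. CHAD (chondroadherin), a cartilage protein that binds cells and collagen, was the clearest. Its RPKM was 1369, 317.8 and 984.5 in DPLBA against 43.5, 113.1 and 16.5 in MHLBA, and 534.8, 87.9 and 501.4 in DPLBJ against 29.3, 57.6 and 31.3 in MHLBJ. The groups did not overlap, and the log2 fold change was 3.35 ± 0.68 (adjusted p = 0.136) in juveniles and 3.802 ± 0.816 (adjusted p = 0.0571) in adults. ECM2, the neighbor of ASPN, passed in adults (1.08 ± 0.46, adjusted p = 0.202), as did PODNL1 (1.84 ± 0.57, adjusted p = 0.112). The breed difference of PODNL1 was smaller in juveniles by an interaction of -1.71 ± 0.74 (adjusted p = 0.971), which passed an unadjusted P of 0.05, and that of ECM2 was -0.64 ± 0.80.

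The enzymes that build the sugar chains were counted in the same way. Of 18 genes of chondroitin and dermatan sulfate synthesis, 2 rose in DPs in juveniles (CHST12 and CHPF) and 1 in adults (CHST12), and none fell. CHST12, a sulfotransferase, had log2 fold changes of 1.24 ± 0.43 (adjusted p = 0.219) and 1.78 ± 0.47 (adjusted p = 0.0856). The most abundant genes of the list did not pass, with values of -0.17 and 0.30 for CSGALNACT1 and 0.69 and 0.49 for UST. Of 6 keratan sulfate genes, CHST2 rose in juveniles, and CHST2 and B3GNT7 rose in adults. CHST2 reached 171.2 RPKM in DPLBA replicate 2 against 11.2 and 15.5 in the other DPLBA libraries, so its adult value of 5.06 ± 1.21 (adjusted p = 0.0707) contains 1 far library. The most abundant genes of that list, B4GALT4 and B4GALT1, did not pass, at -0.19 and 0.46 in juveniles and 0.40 and 0.59 in adults. Among genes that supply activated sulfate, 3 of 6 rose in juveniles and 1 of 7 in adults. PAPSS2, the synthase of the sulfate donor in cartilage, was among them at both stages (1.93 ± 0.68, adjusted p = 0.221, and 1.65 ± 0.44, adjusted p = 0.0847). PAPSS1 passed in juveniles (1.31 ± 0.27, adjusted p = 0.136) and was 0.54 ± 0.37 in adults. IMPAD1, the other abundant gene of this list, was at 0.28 and -0.28.

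Collagens carry these proteoglycans. Of 9 fibrillar collagen genes, 6 rose in juveniles and 5 in adults, and none fell, with medians of 2.19 and 2.39. COL1A2, a chain of the main collagen of bone, ran from 258 RPKM in MHLBA replicate 1 to 11008 in DPLBJ replicate 1, with log2 fold changes of 2.19 ± 0.87 (adjusted p = 0.257) in juveniles and 2.37 ± 1.11 in adults, where it did not pass (adjusted p = 0.237). COL11A1 rose at both stages (4.59 ± 1.42 and 3.46 ± 1.04), as did COL3A1 (1.08 ± 0.27 and 2.96 ± 1.10), whose adult value includes DPLBA replicate 2 at 1186 RPKM. COL2A1 rose in juveniles (10.5 ± 2.4) and did not pass in adults (4.08 ± 2.49). Its juvenile value does not hold for every library. COL2A1 was 0.880 RPKM in DPLBJ replicate 1, within the MHLBJ range of 0.300 to 1.02, and 667.5 and 1984 in DPLBJ replicates 2 and 3. Of 19 genes for cross-linking enzymes and fibril-associated proteins, 9 rose in juveniles and 10 in adults, and none fell. They included LOXL4 (2.67 ± 0.77 and 2.93 ± 0.48, adjusted p = 0.174 and 0.0335), SPARC (1.85 ± 0.78 and 1.84 ± 0.79) and FN1 (1.98 ± 0.64 and 2.13 ± 0.57). COL9A3 and COL9A2, chains of a cartilage collagen, rose in juveniles (11.6 ± 2.3 and 10.7 ± 2.4) and did not pass in adults, and THBS2 passed in adults (2.55 ± 0.92) and was 1.52 ± 0.96 in juveniles. In DPLBJ replicate 1 COL9A3 and COL9A2 were only 1.48 and 0.720 RPKM, against 83.4 to 633.3 and 181.2 to 1008 in the other DPLBJ libraries.

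Large and heparan sulfate proteoglycans were mixed, with 2 of 13 higher in DPs in juveniles (ACAN and HAPLN1) and 5 of 13 in adults, and none lower. ACAN, the large aggregating proteoglycan of cartilage, had log2 fold changes of 7.67 ± 2.05 and 4.50 ± 1.24, while SDC2, the most abundant by RPKM, was at 0.58 ± 0.61 and 0.22 ± 0.41. SDC3 passed in adults (1.99 ± 0.45) and was 0.62 ± 0.64 in juveniles, and HAPLN1, which ties aggrecan to hyaluronan, was 8.49 ± 1.86 in juveniles and 3.21 ± 1.49 in adults, where it did not pass. In DPLBJ replicate 1 ACAN and HAPLN1 were only 0.220 and 1.47 RPKM, against 41.5 to 172.6 and 21.7 to 257.0 in the other DPLBJ libraries. Signals and receptors bound by the family went both ways. Of 14 tested, 3 rose and 3 fell in DPs in juveniles, and 3 rose and 4 fell in adults. EGFR, which decorin binds, was lower in DPs at both stages (-1.83 ± 0.40 and -1.61 ± 0.37, adjusted p = 0.141 and 0.0649), and WISP1 was higher (2.90 ± 1.03 and 2.11 ± 0.57). TGFB2 was lower in juveniles (-1.65 ± 0.40) and at -0.83 ± 0.39 in adults, IGF1R lower in adults (-2.13 ± 0.73) and at -0.30 ± 0.45 in juveniles, and TGFB1 at -0.15 ± 0.37 and 0.71 ± 0.23, below the fold threshold. Of the proteinases that cut these proteins, 2 of 11 rose and 2 fell in juveniles, and 5 of 12 rose and 1 fell in adults. ADAMTS5, an aggrecanase, was lower in DPs at both stages (-1.25 ± 0.45 and -2.17 ± 0.44). MMP13, a collagenase, was 1.17 ± 0.69 in juveniles and rose in adults (2.997 ± 0.997), MMP9 rose in juveniles (1.43 ± 0.58) and was 1.85 ± 0.90 in adults, and TLL2 was lower in juveniles (-1.80 ± 0.47) and at -0.59 ± 0.43 in adults.

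Between the stages, FMOD, ASPN and PRELP were lower in juveniles than in adults in the MH long bone. These 3 of 8 genes passed there, where 2.91% of 13899 genes passed in either direction and 2.14% were lower in juveniles. FMOD fell from 7.39 ± 0.22 RPKM in MHLBA to 1.79 ± 0.51 in MHLBJ (mean ± SD over 3 libraries each). After TMM normalization the values were 30.2 ± 9.1 and 6.32 ± 1.97 CPM. The log2 difference of FMOD was -2.28 ± 0.36 (SE, juvenile minus adult). ASPN was 2.63 ± 0.88 RPKM in MHLBA and 0.520 ± 0.217 in MHLBJ (-2.54 ± 0.50), and PRELP was 7.77 ± 3.53 and 4.12 ± 1.02 (-1.06 ± 0.35). The groups did not overlap for these 3 genes. After TMM normalization all MHLBJ libraries were below all MHLBA libraries for 609 of 13899 genes. The other 5 lay between -0.72 (OGN) and 0.37 (BGN). All adjusted p were 0.998 in edgeR, which left 0 genes in all after adjustment, while DESeq2 left 2 of the 8 and 46 genes. Chondrocyte markers were also higher in MHLBA, at 16.8 to 261 RPKM in sum against 6.85 to 26.3 in MHLBJ, and their part was not tested.

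In the DP long bone 1 of 8 genes passed, ASPN, lower in juveniles (-5.34 ± 2.30, adjusted p = 0.988), beside 3.14% of 13866 genes in either direction and 1.56% lower in juveniles. This value rested on DPLBA replicate 2, and without that library it was 1.65 and did not pass. The other 7 genes lay between -1.15 (PRELP) and 0.83 (OMD), with groups that overlapped for all of them. FMOD was at -0.90 ± 0.80, and without DPLBJ replicate 3 both FMOD (-2.16) and PRELP (-2.80) passed as lower in juveniles, beside 289 of 14123 genes.

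The pituitary held the same 8 genes at lower levels and in another order. OGN was the highest by median (22.9 RPKM), followed by LUM (16.8), DCN (14.5), FMOD (9.99), BGN (9.82), OMD (4.05), PRELP (3.47) and ASPN (0.770). OGN was the highest gene of the family in 8 of 12 pituitary libraries and in 0 of 12 long bone libraries, and it made up 17.6% to 52.0% of the summed RPKM, against 0.681% to 2.69% in the long bone. The median in the long bone exceeded that in the pituitary by 34.5 times for BGN, 27.1 times for OMD, 15.9 times for LUM and 11.5 times for DCN. For BGN and OMD all 12 long bone libraries were above all 12 pituitary libraries. For OGN and FMOD the pituitary median was the higher one, with ratios of long bone to pituitary of 0.628 and 0.811. PRELP and ASPN were in between, at 2.71 and 1.64. The ratio of OMD to OGN was 0.074 to 0.389 in the pituitary and 3.20 to 13.0 in the long bone, without overlap. The tissues were compared as a description only.

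**Figure D5:**
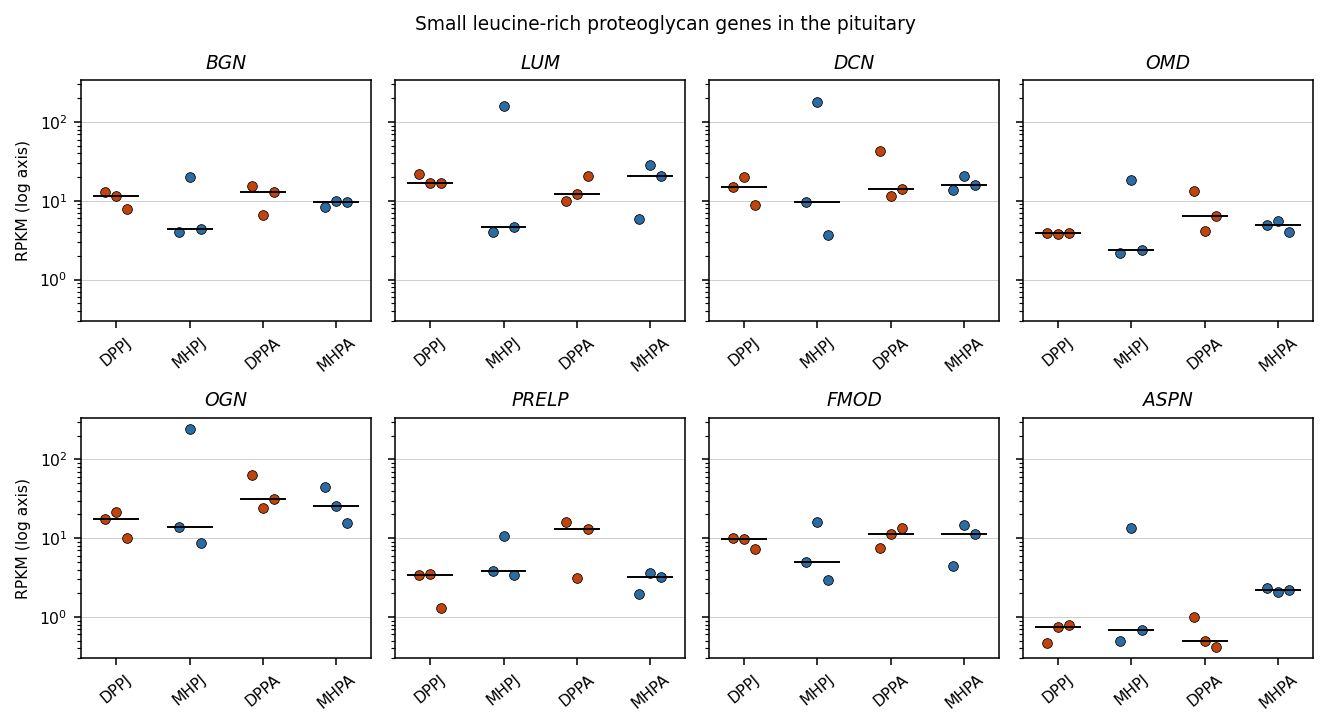
RPKM (log axis) of each gene in the 12 pituitary libraries by group. Points are libraries in the order of replicates 1, 2 and 3, bars are group medians, DPs are red and MHs blue. MHPJ replicate 2 is the highest library for 7 of the 8 genes, and PRELP is highest in DPPA replicate 1.

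In the juvenile pituitary none of the 8 genes passed between the breeds, where 20.3% of 14603 genes passed (0 of 8 at an unadjusted P under 0.05 with edgeR and 0 called with DESeq2). One library stood far from the rest. MHPJ replicate 2 had 246.2 RPKM of OGN, 181.5 of DCN, 161.9 of LUM and 13.5 of ASPN, whereas the other MHPJ libraries had 14.0 and 8.58 of OGN, 9.73 and 3.72 of DCN, 4.01 and 4.59 of LUM and 0.490 and 0.690 of ASPN. The 3 DPPJ libraries lay between 10.1 and 21.4 RPKM of OGN, 8.80 and 19.9 of DCN, 16.7 and 21.8 of LUM and 0.470 and 0.790 of ASPN. The groups overlapped for these 4 genes. The same MHPJ library held 6 skeletal muscle markers at 565.5 RPKM in sum, against at most 11.8 in the other pituitary libraries, and COL3A1 at 44.0 RPKM against at most 6.94. The 10 markers of fibroblasts and marrow stroma, which include COL3A1, were not raised as a list. Their sum was 146.6 RPKM there, and 140.9 and 192.0 RPKM in MHPJ replicates 1 and 3. All 3 MHPJ libraries held hormone markers at no more than 9.89 RPKM in sum and glial markers at 4506 to 6270. In MHPJ replicate 2 the glial sum came mostly from S100B and MBP, with GFAP and AQP4 at 26.5 and 1.86 RPKM. The 3 DPPJ libraries held hormone markers at 33560 to 42460, so breed and the make-up of the tissue piece cannot be told apart here. The part of the muscle and COL3A1 signal was not tested. With MHPJ replicate 2 the 8 log2 fold changes (DP minus MH) ran from -3.12 (ASPN) to -0.04 (FMOD), with a median of -1.60. Without it 3 genes passed as higher in DPs, LUM (1.95), BGN (1.21) and FMOD (1.07), beside 1934 of the 15071 genes tested in that fit.

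In the adult pituitary 2 of 8 genes passed, beside 2.93% of 14376 genes. PRELP was higher in DPs, with 16.1, 3.13 and 13.2 RPKM in DPPA and 1.93, 3.58 and 3.22 in MHPA (2.08 ± 0.62, adjusted p = 0.503). The RPKM values overlapped, since DPPA replicate 2 was below the higher MHPA libraries, although the TMM-normalized values did not. ASPN was lower in DPs, with 1.01, 0.500 and 0.410 RPKM in DPPA and 2.31, 2.05 and 2.20 in MHPA (-1.61 ± 0.51, adjusted p = 0.503), and the groups did not overlap. After TMM normalization all DPPA libraries were above all MHPA libraries for 1318 of 14376 genes, and below them for 1217. DPPA replicate 1 and MHPA replicate 1 had hormone markers near 0. Without both, ASPN passed at -2.01 and PRELP did not, at 1.41, in an alternative chosen after the data were seen. The other 6 genes lay between -0.16 (LUM) and 0.91 (OMD).

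Between stages, 3 of 8 genes were lower in juveniles in the DP pituitary, beside 3.56% of 14533 genes in either direction and 2.64% lower in juveniles. OGN was 17.5, 21.4 and 10.1 RPKM in DPPJ and 62.9, 24.5 and 31.7 in DPPA (-1.43 ± 0.47, adjusted p = 0.419), without overlap. OMD was 3.91, 3.77 and 3.91 RPKM in DPPJ and 13.4, 4.11 and 6.45 in DPPA (-1.21 ± 0.47, adjusted p = 0.422), also without overlap. After TMM normalization all DPPJ libraries were below all DPPA libraries for 1514 of 14533 genes. PRELP was 3.45, 3.49 and 1.31 RPKM in DPPJ and 16.1, 3.13 and 13.2 in DPPA (-2.10 ± 0.69, adjusted p = 0.419), with overlap. DPPA replicate 1, the highest library for all 3 genes, held glial markers at 7065 RPKM in sum and hormone markers at 20.7 RPKM, and without it only PRELP passed (-1.59). Without DPPJ replicate 3 none passed. In the MH pituitary 0 of 8 genes passed (edgeR, 0 at an unadjusted P under 0.05), beside 7.74% of 14430 genes, while DESeq2 called 1, PRELP. Without MHPJ replicate 2, 3 genes passed there as lower in juveniles, ASPN (-1.73), LUM (-1.83) and DCN (-1.17). Of the 14794 genes tested in that fit, 946 were called lower in juveniles. The DP minus MH difference changed between stages for 1 of 8 genes in the pituitary, PRELP (-3.34 ± 0.93, adjusted p = 0.166), beside 20.4% of 15200 genes at an unadjusted P under 0.05.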

How the data were processed

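RNA of 24 tissue samples was sequenced as ribosome-depleted, directional libraries on an Illumina sequencer. The authors deposited raw read counts of 24232 genes and RPKM values of 24248 genes (reads scaled to gene length and depth). The labels name bcl2fastq, TopHat2 and edgeR without versions, and the study's methods name Salmon, for TPM values, and the EquCab3.0 genome. Which program made the deposited counts is not given in the sources used here, nor whether the counting used strand. Every deposited sample column was matched to a label. In DPLBA replicate 2 the deposited RPKM of 294 of 10842 genes was over 2% from the value its reads give, but no member was off by more than 0.155% in any library.

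The 8 genes, the gene lists and the rules were chosen with earlier results of these data known. The deposited counts were fitted with edgeR 4.0.16 in R 4.3.3 (quasi-likelihood test, TMM, filterByExpr with a minimum count of 10) on the 6 libraries of each comparison, and on the 12 of a tissue for interactions. A call needs a change of over 2 times at an unadjusted P below 0.05, which is the study's threshold, or an unadjusted P under 0.05 for an interaction. Adjusted p-values are Benjamini-Hochberg over all genes tested. An exact permutation test of 3 against 3 libraries cannot go below 0.1. Levels are deposited RPKM, and CPM are TMM-normalized. Named genes are all members, up to 4 per list for each comparison (the 2 called with the largest change and the 2 highest by mean RPKM) and the 3 most like each member. The labels do not say that replicates come from separate horses, but the study's methods do. Alternatives were DESeq2 1.42.0, limma 3.58.1 on log2(RPKM + 1) and log2(RPKM + 0.1), other scaling, no filter, all libraries of a tissue, a replicate block and leaving out each library. The tests recovered known large changes in simulated data. Those counts were drawn independently around a shared mean profile, without libraries that differ in tissue make-up. The simulation therefore does not show how the tests behave with such libraries.

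The replicate numbers name different horses. In the adult pituitary alone, same-numbered libraries of the breeds deviated together (r = 0.642, 0.531 and 0.350), as seen in the data and not from the design. With the replicate number as a block, 2 of the 8 genes were called there, as without it, and 593 genes in all against 421.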

Additional observations from a re-analysis of the deposited data

Results flagged for a closer look

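PRELP in the pituitary was flagged because the difference between breeds was not the same at both stages. The interaction was -3.34 on the log2 scale (edgeR, adjusted p = 0.166). After TMM normalization the 3 DPPJ libraries were below the 3 MHPJ libraries (log2 fold change -1.32), as they were for 2721 of 14603 genes tested. The 3 DPPA libraries were above the 3 MHPA libraries (2.08), as they were for 1318 of 14376 genes. By RPKM the groups overlapped at both stages. The 3 MHPJ libraries, DPPA replicate 1 and MHPA replicate 1 had hormone markers near 0, and the part of this in the result was not tested. PRELP was also flagged because in juveniles it was higher in DPs in the long bone (log2 fold change 3.20) and lower in DPs in the pituitary, without overlap after TMM normalization in either tissue, and the difference between tissues was not tested.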

How the results depend on the processing

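The number of the 8 genes called moved by over 1.5 times as follows, and the cause was not tested. In the juvenile long bone breed comparison (7 called) it was 3 with limma on either RPKM scale, 3 with the replicate block and 0 after Benjamini-Hochberg adjustment, and 6 to 8 in every remaining alternative on the full 6 or 12 libraries. In the adult long bone (6 called) it was 1 after adjustment and 6 to 7 otherwise. In the juvenile pituitary (0 called) it was 2 with all 12 libraries. In the adult pituitary (2 called) it was 1 with limma on log2(RPKM + 1), 1 with all 12 libraries, 0 after adjustment and 1 without both libraries low in hormone markers. Between stages it was 0 in the DP long bone (1 called) with DESeq2, DESeq2 size factors, limma on either scale, the replicate block and adjustment. In the MH long bone (3 called) it was 1 with all 12 libraries and 0 after adjustment. In the DP pituitary (3 called) it was 1 with all 12 libraries, 1 with the replicate block and 0 after adjustment, and in the MH pituitary (0 called) 1 with DESeq2. The pituitary interaction (1) was 0 after adjustment. The replicate block, where the libraries share only a number, changed no other count of the 8 by over 1.5 times.

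With each library left out the counts ran from 3 to 7 in the juvenile and from 3 to 7 in the adult long bone, from 0 to 3 in the juvenile and from 1 to 2 in the adult pituitary (1 without DPPA replicate 3), from 0 to 2 in the DP and 2 to 4 in the MH long bone between stages, from 0 to 3 in both pituitary stage comparisons, and from 0 to 1 (long bone, 1 without DPLBA replicate 2 or DPLBJ replicate 1) and 1 to 4 (pituitary, 4 without MHPJ replicate 1 or MHPJ replicate 3, 3 without MHPJ replicate 2, 2 without MHPA replicate 1) for the interactions. In the DP long bone the count was 0 without DPLBA replicate 2, DPLBJ replicate 1 or DPLBJ replicate 2. The juvenile pituitary count was 2 without MHPJ replicate 1 or MHPJ replicate 3, and the MH pituitary count was 1 without either. Adult ASPN reversed to -0.63 with the replicate block and to -2.10 without DPLBA replicate 2 (range -2.10 to 5.48 with each library left out), and adult OGN to -0.078 without that library (range -0.078 to 1.65). No other long bone fold change of a member reversed between breeds in any alternative run. Over all genes tested, calls moved by over 1.5 times from 2580 to 1668 (limma on log2(RPKM + 1)) in the adult long bone and from 421 to 201 (the same) in the adult pituitary. Between stages they moved from 436 to 819 without the low-count filter and 173 with that limma fit in the DP long bone, from 404 to 874, 144 and, with the replicate block, 241 in the MH long bone, from 518 to 794 and 237 and, with all 12 libraries, 340 in the DP pituitary, and from 1117 to 1758 with all 12 libraries in the MH pituitary. Long bone interactions moved from 660 to 397 and 386 with limma and 437 with the replicate block. With each library left out, calls over all genes ran from 1194 to 3087 in the juvenile long bone, 2153 to 4505 in the juvenile pituitary, 415 to 785 in the adult pituitary (866 without both libraries low in hormone markers), 209 to 1323 (DP) and 265 to 778 (MH) in the long bone and 259 to 1141 (DP) and 651 to 2308 (MH) in the pituitary between stages, and 423 to 1228 (long bone) and 1913 to 4771 (pituitary) for the interactions. Without TMM the median of all genes moved from 0.053 to -0.169 in the juvenile long bone, from -0.013 to -0.219 in the adult pituitary, from -0.027 to 0.149 (MH long bone), from -0.033 to 0.127 (DP pituitary) and from 0.005 to -0.128 (MH pituitary) between stages. Of 18 correlations recomputed, 15 moved by under 0.1. With 3 libraries a group, a difference that does not pass is not shown to be absent, and ASPN, at 6 to 9225 long bone reads, is the least precise member.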
